A study of Mus musculus with 6 samples.

Results

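The genes described here are 9 components at the receiving end of the Hedgehog pathway: the receptor Ptch1, the signal transducer Smo, the ligand decoy Hhip, the co-receptors Gas1, Boc and Cdon, and the transcription factors Gli1, Gli2 and Gli3. They were picked by name from the 23284 genes of the deposited expression table, as one pathway, and the family was chosen on values of this same WT to KD contrast, in which Gas1 was already known to be high in KD. All differences between WT and KD below are therefore a description of the members and are not tested. The table covers heart ventricles at E9.5 from tetraploid chimeric embryos labelled as strain C57BL/6, 3 of them WT (genotype wild type) and 3 of them KD (genotype Tbx5ua -/-). Both groups are chimeras made with B6J (C57BL/6J) ES cells. Tbx5ua is a long non-coding RNA gene that shares a promoter region with Tbx5 and is read in the opposite direction. The KD cells are homozygous for a cassette of bGH poly(A) signals within Tbx5ua, so that its RNA is cut short while its promoter is left in place. KD embryos in the study came from more than one ES cell line, and which line each sequenced embryo came from is not given in the sources used here.

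In the Hedgehog pathway, a secreted ligand (Shh, Ihh or Dhh) binds Ptch1, which in the absence of ligand keeps Smo inactive. Active Smo works in the primary cilium and changes the processing of Gli2 and Gli3, so that less Gli repressor and more Gli activator reaches the nucleus. Ptch1, Gli1 and Hhip are themselves classical transcriptional targets of the pathway and are widely used as its readout. Gas1, a GPI-anchored protein first known for its expression in growth-arrested cells, and the immunoglobulin superfamily proteins Boc and Cdon bind ligand together with Ptch1. In the embryo, Hedgehog ligand from the foregut acts on second heart field progenitors that contribute to the outflow tract and the atrial septum.

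The table gives 1 FPKM value per gene for each group, so the values used here show no spread between embryos and carry no error. The results of the authors' own comparison of the groups (fold change, test score, p and q) were not used, and only its mark for too few reads was taken. No difference below is set against the variation between embryos. Read depth is unknown, since FPKM (fragments scaled to transcript length and to the mapped fragments of a library) carries no counts. Summed FPKM came to 859452 for WT and 877889 for KD, and the median difference on the log2(FPKM + 1) scale, KD minus WT, was 0.0043 over the 11606 genes with at least 1 FPKM in either group. Of the cardiomyocyte markers, all 6 were abundant in both groups (Myl7, an atrial and embryonic myosin light chain, had 13643.1 FPKM in WT and 12907.4 in KD). The table also lists 0 for the cardiac actin gene Actc1 in both groups, so a 0 can be a missing estimate and is given here only as listed. Tbx5ua is not analysed here, so the label of the KD group was not checked on its target. Tbx5 itself had 17.2 FPKM in WT and 15.7 in KD.

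The highest value of any member in either group was 8.81 FPKM (Gas1 in KD), and members listed at 0 have no level to describe. Smo, Gas1 and Ptch1 reached 1 FPKM in WT, and Smo, Gas1 and Gli3 reached it in KD. The other 5 members were below 1 FPKM in both groups, and Hhip was listed at 0 in both. Of the 9 members, Cuffdiff marked 3 (Hhip, Gli1 and Gli2) as having too few reads for its own test. In WT, the order of the group values from high to low was Smo, Gas1, Ptch1, Gli3, Boc, Cdon and Gli2, with Gli1 and Hhip at 0. In KD, Gas1 came first, followed by Smo, Gli3, Ptch1, Cdon, Gli2, Boc and Gli1, with Hhip at 0. Without values of single embryos, it is not known which neighbours in either order differ beyond their spread.

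**Figure D1:**
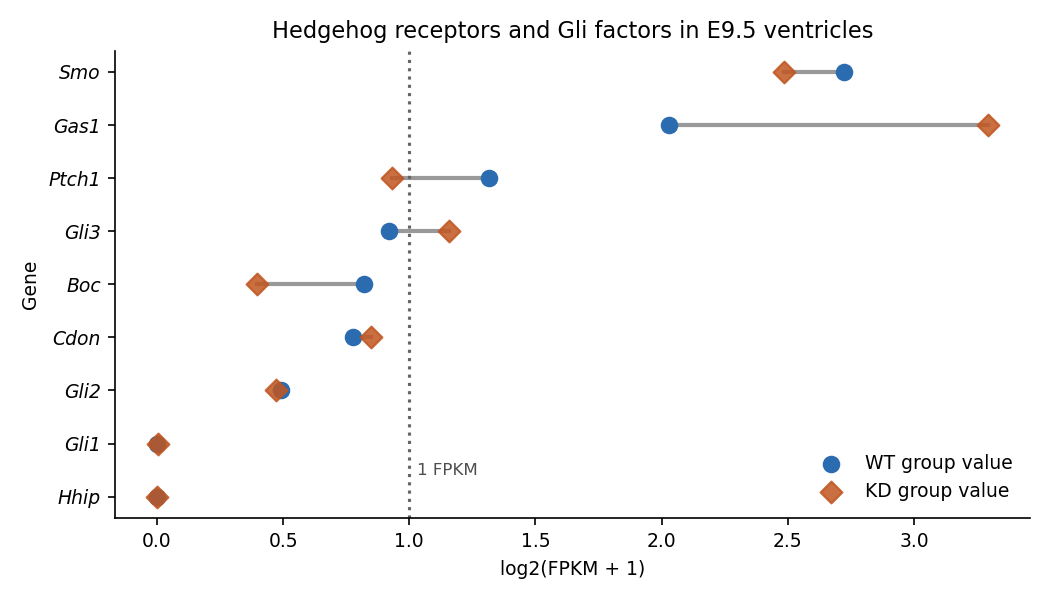
Group values of the 9 members in ventricles at E9.5, on the scale of log2(FPKM + 1), with WT as circles and KD as diamonds, ordered by the WT value. Each point is the authors' single value for a group, so there are no error bars. Gas1 moves from 3.09 to 8.81 FPKM, while Gli1 and Hhip sit at or next to 0.

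Gas1 had the largest difference of the 9 members. Its gene, on chromosome 13 from 60174405 to 60177535 (mm10), has a single exon in its longest GENCODE transcript of 2961 bases. Gas1 was 3.09 FPKM in WT and 8.81 in KD, a ratio of 2.85 and a difference of 1.26 on the log2(FPKM + 1) scale. In WT 61.6% of the genes of the table had a lower value than Gas1, and in KD 73.9%. Of the 11606 genes with at least 1 FPKM in either group, 50, Gas1 included, had a difference at least as high. The exon of Gas1 overlaps one of Gm48488, a lincRNA annotated on the opposite strand. Smart-Seq2 libraries do not keep the strand, so reads of both would be counted together there, and Gm48488 itself is not analysed here.

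Gas1 was the only member past a 1.5-fold difference on the log2(FPKM + 1) scale among the 4 members that had at least 1 FPKM in either group, and it was higher in KD. Over all 11606 genes, 255 (2.20%) were higher in KD by this rule and 170 (1.46%) were lower. Since the contrast itself took part in the choice of the family, nothing is read from the count of 1 of 4. The median difference of these 4 members was 0.00095, with 2 above 0 and 2 below.

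**Figure D2:**
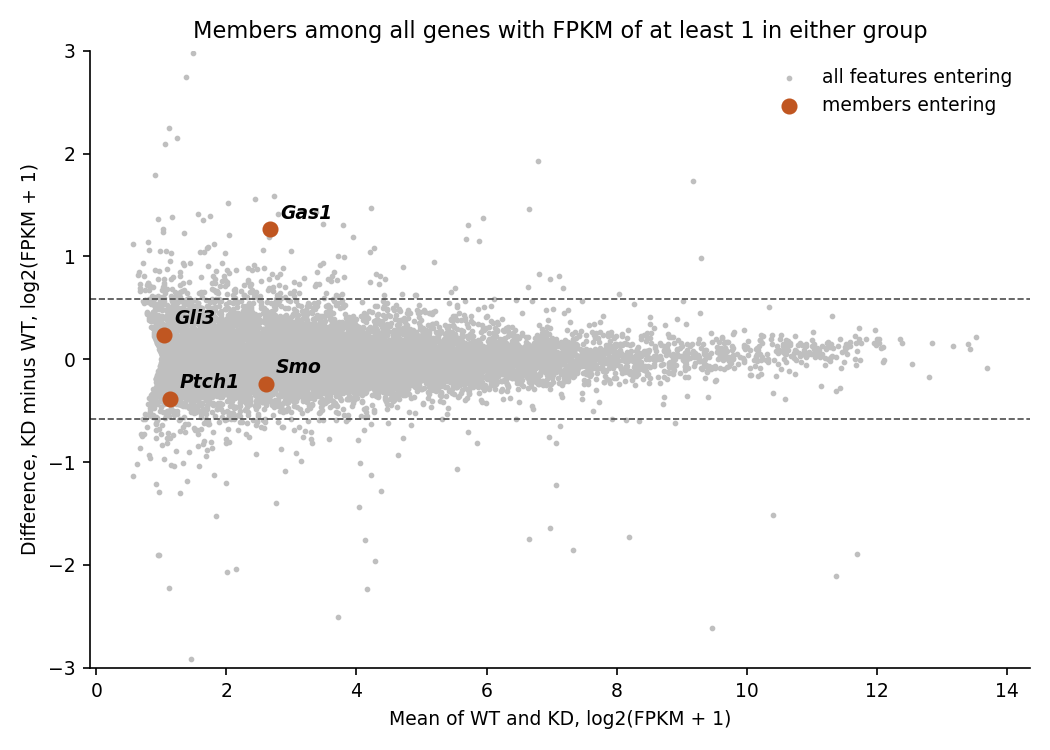
Difference between KD and WT against the mean level, both on the log2(FPKM + 1) scale, for the 11606 genes with at least 1 FPKM in either group (grey) and the 4 members among them. Dashed lines mark 1.5-fold, and 53 genes lie outside the plotted range of the vertical axis. Gas1 lies above the upper line at 1.26, while Gli3, Smo and Ptch1 lie between the lines.

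The other co-receptors, Boc and Cdon, were both below 1 FPKM. Boc, on chromosome 16 from 44485045 to 44558870, was measured at 0.765 FPKM in WT and 0.318 in KD, so that the KD value was 0.416 of that in WT. Cdon, on chromosome 9 from 35452076 to 35507652, was measured at 0.715 FPKM in WT and 0.799 in KD, a ratio of 1.12. Boc was thus lower and Cdon slightly higher in KD, at levels where the pseudocount shrinks the difference of Boc to -0.42. FPKM is scaled to transcript length, and the group values of the co-receptors are set side by side here only as listed. Ratios and shares carry the unknown precision of Boc and Cdon below 1 FPKM, and those to Boc in KD rest on 0.318 FPKM. Reads of Gm48488 may also be part of the Gas1 value. Gas1 stood at 4.32 times Cdon and 4.03 times Boc in WT, and at 11.0 times Cdon and 27.7 times Boc in KD. Of the summed FPKM of the 3 co-receptors, which was 4.57 in WT and 9.93 in KD, Gas1 made up 67.6% in WT and 88.7% in KD.

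Ptch1 and Smo, which bind and relay the signal, were both lower in KD, though not past 1.5-fold on the log2(FPKM + 1) scale. Ptch1, on chromosome 13 from 63511533 to 63565520, was measured at 1.49 FPKM in WT and 0.910 in KD, a difference of -0.38. The ratio of its group values, 0.610, is past 1.5-fold when no pseudocount is added, a rule that 3.10% of the genes above 0 in both groups and with at least 1 FPKM in either also meet in this direction. Smo, on chromosome 6 from 29735497 to 29761366, was measured at 5.60 FPKM in WT and 4.60 in KD, a difference of -0.24. Smo was the highest member in WT, at 3.75 times Ptch1, and stood at 5.05 times Ptch1 in KD. Gas1 was 0.551 times the level of Smo in WT and 1.92 times that level in KD.

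Among the transcription factors, Gli3 was the highest in both groups. Gli3, the main source of Gli repressor, lies on chromosome 13 from 15463723 to 15730025 and was measured at 0.890 FPKM in WT and 1.23 in KD, a difference of 0.24. An exon of Gli3 overlaps one of Gm6556 on the opposite strand, and one of Hhip overlaps Gm27820, with the same limit as for Gas1. Gli2, the main activator, on chromosome 1 from 118834061 to 119053619, was measured at 0.406 FPKM in WT and 0.387 in KD. The level of Gli3 was thus 2.19 times that of Gli2 in WT and 3.18 times in KD. Gli1 was listed at 0 in WT and at 0.0036 FPKM in KD, in a locus on chromosome 10 from 127323727 to 127341579. GENCODE places Gli1 itself from 127329882 to 127341974. Exons of Gli1 overlap those of Arhgap9 on the opposite strand, and the table places both genes in a single locus, with 0.412 FPKM for Arhgap9 in WT and 0.291 in KD. Hhip, the decoy receptor on chromosome 8 from 79965851 to 80058008, was listed at 0 in both groups. Of the 3 classical readout genes, then, Ptch1 alone had a value above 0 in both groups.

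The sign of the difference of each of the 8 members with a value above 0 was the same with pseudocounts of 1 and 0.1, with the median of all genes subtracted and with both groups scaled to the same sum, and also with no pseudocount for the 7 members above 0 in both groups. Under these settings the difference of Gas1 ran from 1.24 to 1.51, that of Ptch1 from -0.71 to -0.38, that of Boc from -1.27 to -0.42 and that of Gli3 from 0.22 to 0.47. A change of pseudocount cannot turn a sign, so only the subtracted median and the scaling to the same sum could have turned one.

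Promoter sequences from RefSeq (GRCm38.p6) were at hand for 7 of the 9 members, all but Boc and Gli1. A single window was used for each, the 250 bases before an annotated RefSeq transcription start, and other starts were not searched. The windows of Cdon, Ptch1 and Gli3 lie inside the gene as bounded in GENCODE. There these genes start farther upstream, at chr9:35421128, chr13:63573598 (minus strand) and chr13:15463235. The windows were searched on both strands for the Gli binding site GACCACCCA and its core ACCACCC, which lies within the full site. The T-box half-site AGGTGTGA and the GC box GGGCGG were searched for in the same way. The full Gli site was in 0 of the 7 windows and in 0.225% of all 32851 windows of the same length. The core was in the window of Gli2 alone, against 3.92% of all windows. The T-box half-site was in none of the 7 windows, against 1.12% of all windows. The GC box was in those of Ptch1, Hhip, Gas1, Gli2 and Gli3, against 32.7% of all windows. A match is a description of letters, and the absence of one says only that these letters are not in this window.

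The windows of Gas1, which had the largest difference, of Ptch1, the receptor gene that the pathway itself transcribes, and of Gli2, which holds the Gli core, are shown 5′ to 3′ along the gene. They lie at chr13:60177536-60177785, chr13:63565736-63565985 and chr1:119053620-119053869, all on the minus strand, with GC contents of 58.8%, 78.4% and 67.2% beside a median of 52.4% over all windows. Capitals mark the GC box in Gas1, from position -144 before the start, and in Ptch1, from position -91, each in either orientation. In Gli2 the capitals mark the Gli core, read on the opposite strand, from position -205.
Gas1: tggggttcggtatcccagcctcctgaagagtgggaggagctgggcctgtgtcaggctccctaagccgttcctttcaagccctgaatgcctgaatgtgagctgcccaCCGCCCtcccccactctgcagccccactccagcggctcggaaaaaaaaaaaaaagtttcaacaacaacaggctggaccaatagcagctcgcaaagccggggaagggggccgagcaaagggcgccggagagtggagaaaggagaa
Ptch1: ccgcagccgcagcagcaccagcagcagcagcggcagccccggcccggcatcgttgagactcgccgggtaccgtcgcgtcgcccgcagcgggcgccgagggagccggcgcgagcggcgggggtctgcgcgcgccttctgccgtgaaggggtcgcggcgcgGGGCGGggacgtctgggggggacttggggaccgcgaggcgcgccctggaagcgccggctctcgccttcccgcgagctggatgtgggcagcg
Gli2: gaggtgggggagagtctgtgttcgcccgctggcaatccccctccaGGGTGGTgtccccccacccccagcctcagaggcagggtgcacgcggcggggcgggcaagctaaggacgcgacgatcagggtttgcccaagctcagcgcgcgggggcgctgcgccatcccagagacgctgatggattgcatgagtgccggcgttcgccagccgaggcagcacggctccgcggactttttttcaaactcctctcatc

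Dhh, the only ligand with at least 1 FPKM, had 3.45 FPKM in WT and 2.18 in KD, a difference of -0.49. Shh was listed at 0 in both groups, and Ihh had 0.125 FPKM in WT and was listed at 0 in KD. The ratio of the Dhh values was 0.632, so that Dhh and Ptch1 were lower in KD by a similar ratio. With 1 value per group, this likeness is a description only.

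Around the 9 members, 59 other genes of the pathway were listed by role, of which 41 had at least 1 FPKM in either group. Of these 41 genes, 1 was past 1.5-fold and higher in KD, Scube2, and 0 were past it and lower, beside 2.20% and 1.46% over all genes. Scube2, which helps to release lipid-modified ligand from the cells that make it, had 1.02 FPKM in WT and 2.22 in KD, a difference of 0.67. The median difference of the 41 genes was 0.03, and 22 were above 0 and 19 below. Among the genes for processing and release of the ligand, Adam17, a cell surface protease and the most abundant of its group, had 7.86 FPKM in WT and 8.20 in KD, and the 5 genes with at least 1 FPKM ran from -0.38 to 0.67. Disp1, the transporter that releases ligand, had the lowest difference of these 5, with 3.79 FPKM in WT and 2.68 in KD, and was named after its value had been seen.

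Of the other proteins that bind Hedgehog ligand, the glypican gene Gpc3 was the highest with 84.8 FPKM in WT and 102 in KD. Of the 16 regulators of Smo and Gli, 13 had at least 1 FPKM, 0 of which were past 1.5-fold, and their median difference was 0.04. Csnk1a1, a kinase that marks Gli proteins for processing, was the highest of these in WT, with 174 FPKM in WT and 161 in KD. Sufu, which holds Gli proteins in the cytoplasm, had 9.45 FPKM in WT and 8.73 in KD. Of the 15 genes of the primary cilium 13 had at least 1 FPKM, 0 of these were past 1.5-fold, and the differences ran from -0.25 to 0.17. The highest, Ift27, an intraflagellar transport gene, had 36.6 FPKM in WT and 31.3 in KD. Sufu was named after its values had been seen.

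Besides Ptch1, Gli1 and Hhip, 14 genes described as Hedgehog targets in other tissues were listed, and 6 of them had at least 1 FPKM in either group. Of these 6, 0 were past 1.5-fold, 3 were higher and 3 lower in KD, with a median difference of 0.11. Ccnd2, a cyclin gene, was the highest with 237 FPKM in WT and 212 in KD. The range ran from -0.42 for Mycn, a proliferation factor with 72.6 FPKM in WT and 53.9 in KD, to 0.48 for Foxc2, a forkhead factor with 17.8 FPKM in WT and 25.1 in KD. Below 1 FPKM, Osr1, a gene of the posterior second heart field, had 0.233 FPKM in WT and 0.673 in KD, and Foxl1 had 0.234 FPKM in WT and 0.839 in KD. The latter 4 genes were named after their values had been seen. Many of these genes respond to other pathways too, and they did not differ in one common direction.

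**Figure D3:**
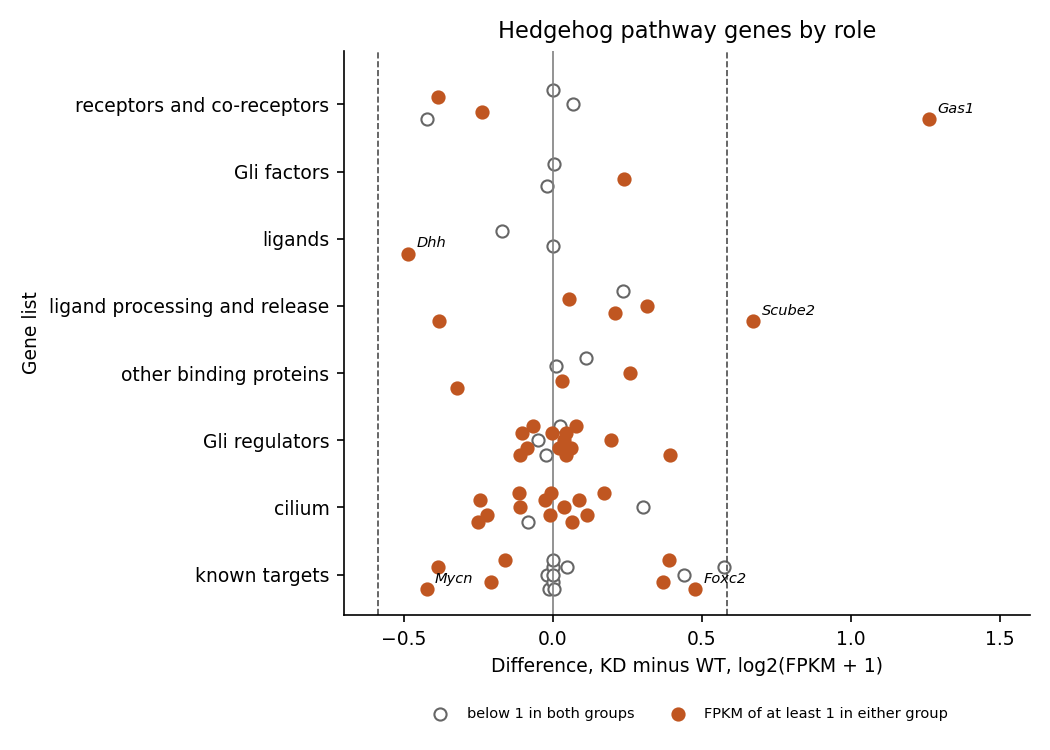
Difference between KD and WT on the log2(FPKM + 1) scale for each gene of the Hedgehog pathway, in rows by role, where filled points have at least 1 FPKM in either group and open points do not. Ptch1, Gli1 and Hhip appear both as receptors or factors and as known targets, and dashed lines mark 1.5-fold. Gas1 at 1.26 and Scube2 at 0.67 are the filled points past a dashed line.

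Genes with 2 group values nearest to those of Gas1, by distance in the plane of the WT and KD values on the log2(FPKM + 1) scale, were Ptn, Cldn5, Aldh1a1, Ndufa4l2 and Mpst. Ptn, a secreted growth factor gene, had 3.15 FPKM in WT and 8.47 in KD, and Cldn5, an endothelial tight junction gene, had 3.07 FPKM in WT and 7.51 in KD. Aldh1a1, a retinaldehyde dehydrogenase gene, had 3.25 FPKM in WT and 10.3 in KD. Ndufa4l2 had 2.83 FPKM in WT and 10.5 in KD, and Mpst had 3.38 FPKM in WT and 7.10 in KD. With 2 values per gene, the likeness is one of level and difference only.

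Of the markers of 8 cell types, those of 2 included genes past 1.5-fold, all higher in KD as Gas1 was. Of the epicardial markers 6 of 7 had at least 1 FPKM, and 4 of these 6 were past 1.5-fold and higher in KD, beside 2.20% of all genes: Upk3b (7.80 FPKM in WT and 20.7 in KD), Upk1b (9.17 and 22.1), Tcf21 (11.9 and 25.5) and Tbx18 (3.46 and 6.56). All 6 were above 0, with a median difference of 0.90, and the summed level of the 7 genes was 47.3 FPKM in WT and 96.8 in KD. Wt1, the highest of them in WT, had 13.8 FPKM in WT and 19.2 in KD. Of the mesenchymal markers 5 of 6 had at least 1 FPKM, with a median difference of 0.51 over these 5, and the summed level of all 6 was 31.4 FPKM in WT and 46.3 in KD. Col1a1, a fibrillar collagen gene, with 1.76 FPKM in WT and 4.64 in KD, and Pdgfra, a receptor of mesenchymal and epicardium-derived cells, with 0.969 and 2.78, were past 1.5-fold, beside the same 2.20%, while Col3a1, the highest in WT, had 23.0 and 30.7. No marker of these 2 lists was at 0 in either group. Their part in the difference of Gas1 was not tested. In ventricles measured whole, more cells of a type and more RNA per cell cannot be told apart.

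In the other 6 lists 0 genes were past 1.5-fold, beside 2.20% higher and 1.46% lower over all genes. Only genes with at least 1 FPKM in either group could be counted. In foregut endoderm 0 of 6 had that level, so its count was fixed, and few did in second heart field and neural crest. Of the 6 cardiomyocyte, 6 endocardial and 5 erythroid markers, all of which had at least 1 FPKM, the median differences were -0.05, -0.03 and 0.11. The highest endocardial marker in WT, Emcn, had 43.1 FPKM in WT and 57.4 in KD, while the top erythroid one in WT, the embryonic globin gene Hba-x, had 4401 and 4318. Of the second heart field markers 2 of 6 had at least 1 FPKM, with Fgf8 at 2.45 FPKM in WT and 1.41 in KD, Tbx1 listed at 0 in both groups, and a summed level of 5.27 FPKM in WT and 4.12 in KD. Osr1, given above among the targets, is also in this list and was higher in KD. Of the neural crest markers 1 of 6 did, Ednrb, which is also expressed outside the crest, with 17.0 FPKM in WT and 24.8 in KD, and Foxd3 and Dlx2 were listed at 0 in both. The 6 markers of foregut endoderm, the tissue known to secrete Shh near the heart, summed to 0.517 FPKM in WT and 0.732 in KD. The highest of them in WT, Nkx2-1, had 0.286 FPKM in WT and 0.212 in KD, and Foxa1 was listed at 0 in both groups. Tbx1, Foxd3, Dlx2 and Foxa1 were named because they are listed at 0, after their values had been seen.

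**Figure D4:**
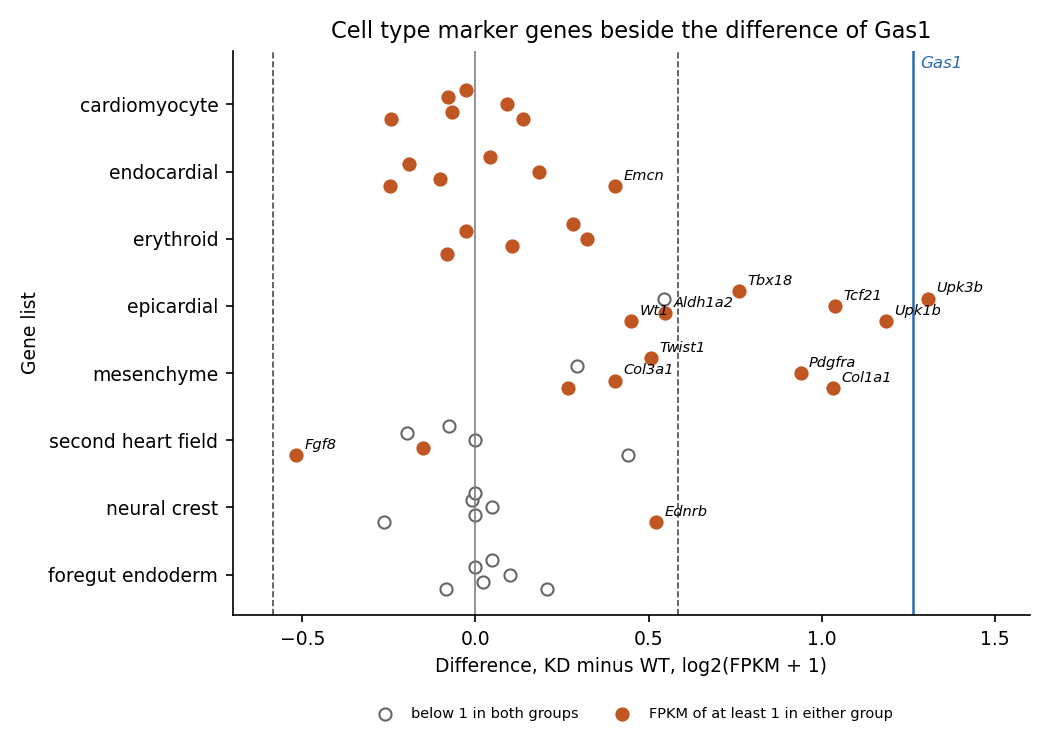
Difference between KD and WT on the log2(FPKM + 1) scale for marker genes of 8 cell types, in rows, with filled points for genes with at least 1 FPKM in either group and open points for the rest. Dashed lines mark 1.5-fold and the blue line marks the difference of Gas1, 1.26. The 4 epicardial and 2 mesenchymal markers past the upper dashed line are the only markers past either line.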

How the data were processed

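Ventricles of 3 WT and 3 KD embryos at E9.5 were used for RNA-seq, from 10 ng of total RNA by Smart-Seq2 with 12 cycles of preamplification and 9 of enrichment PCR, and sequenced single-end. Per the submitters' processing notes, TopHat, Bowtie2, Cuffdiff and mm10 were used, with versions not given in the sources used here. The authors deposited 1 table from Cuffdiff that gives each gene 1 FPKM value in WT and 1 in KD, the KD group under the name KO. Its columns of the authors' own comparison (fold change, test score, p and q) were not used, and 0 columns of single embryos were left unused. How precise low FPKM values are after PCR amplification is not known.

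Group values were compared as differences of log2(FPKM + 1), KD minus WT, over genes with at least 1 FPKM in either group, and counted past 1.5-fold. No test was made, since each group has 1 value per gene and the columns of the authors' comparison were not used. Table positions start from 0 and are given with 1 added to the start. Exons came from GENCODE release M21 (GRCm38). The named genes were the members, pathway genes past 1.5-fold, the highest WT gene of each role and marker list, the ligands, markers past 1.5-fold and the 5 genes nearest to Gas1. Other genes were named after their values had been seen. Some pathway genes are not reported here. The members and lists were chosen with earlier results of these data known. The script was tested on simulated data. Python 3.11.15, NumPy 2.4.6, pandas 2.3.3 and Matplotlib 3.10.9 were used.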

Additional observations from a re-analysis of the deposited data

How the results depend on the processing

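The alternatives change the scale, filter and fold. No paired analysis was possible because single embryos have no column, and for the same reason fits without each replicate were not run. The count of members past 1.5-fold was 1 (Gas1). It became 2, with Ptch1 lower, at a pseudocount of 0.1 (4.48% of all genes higher, 3.10% lower) and with no pseudocount (4.62% and 3.10%). It was also 2, with Ptch1 lower, with the threshold lowered to 0.32 on the log2 scale. Under the other 6 alternatives it was 1, where 0.65% to 2.15% of all genes are higher and 0.58% to 1.59% lower. The count of other pathway genes was 1 (Scube2). It became 2, with Dhh lower, at a pseudocount of 0.1 and with no pseudocount, 8 at the lowered threshold of 0.32 (8.80% of all genes higher, 6.40% lower), and 0 both at 2-fold and with at least 5 FPKM in either group. The median difference of the members, 0.00095 over 4 genes, moved with the scale as well as with which members enter. It was 0.074 with a pseudocount of 0.1, 0.092 with none, -0.0073 with no filter, 0.51 over the 2 members with at least 1 FPKM in both groups and also with at least 5 in either, and -0.020 with the groups scaled to the same sum. For the 5 members below 1 FPKM, precision is unknown because the depth is.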
